A study of Drosophila melanogaster with 43 samples.

Results

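Head transcripts left in solution after b-isox treatment were compared with transcripts of S2 cells by their rank within each library. S2 is a Drosophila melanogaster cell line grown in suspension that has features of embryonic blood cells. The comparison used 6 of the 43 samples of the series, 4 head supernatants and 2 S2 background libraries. The series concerns Orb2, an RNA-binding protein of the CPEB family, and b-isox is a small molecule that precipitates RNA-binding proteins with low-complexity regions together with bound RNA. The heads came from flies of the genotype Orb2 WT-GFP kept on semi-defined medium at 25 °C, and the labels used here give no age or sex for them. The supernatant is the soluble part of the head extract, so the head libraries are not untreated whole-head RNA. The S2 cells had received 250 µM CuSO4 at 27 °C in Schneider's medium with serum, and their RNA had passed 2 rounds of oligo-dT bead purification. Genes were joined by symbol where a head row held 1 gene name, which gave 11759 of the 13792 genes in the S2 files. Of the 2033 genes left out, 1335 sat in a head row shared by several genes, and orb2 was among them.

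Head values were FPKM and S2 values RPKM, both reads per length and library size but from different pipelines. Each value was therefore turned into a percentile rank from 0 to 100 over the joined genes of its library, and differences below are head rank minus S2 rank in percentile points. Tissue, extract, RNA purification and pipeline all changed together between the groups and cannot be told apart. Fewer cells of a type and less RNA per cell cannot be told apart either. No label states that replicates are separate cultures or animals, and each p-value therefore reflects library-to-library spread that may be purely technical. Sequencing depth is unknown because no counts were used. Across genes, head libraries correlated with each other at a Spearman rho of 0.91 to 0.948, the S2 libraries at 0.97, and heads with S2 at 0.51 to 0.58. Percentile 50 lay at 1.4 to 1.66 FPKM in heads and at 1.1 and 1.11 RPKM in S2, while percentile 90 lay at 27.7 to 31.3 FPKM and at 51.2 and 55.3 RPKM. Of the joined genes, 13.8 to 16.6% were listed at 0 in a head library, against 27.4 and 31% in the S2 libraries. A listed 0 need not mean silence: the 7 joined mitochondrially encoded genes, which every respiring cell uses, were at 0 in all 6 libraries.

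An adult fly head holds the brain, the compound eyes, muscles of the proboscis and antennae, cuticle-forming epidermis and a layer of fat body that secretes proteins into the blood. Neurons and photoreceptors do not divide and devote many transcripts to ion channels, synaptic release and light detection. S2 cells divide continuously, secrete extracellular matrix as blood cells do, and carry none of these specialised structures. Ribosomes, mitochondria and the proteasome are needed in both.

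By the cut-offs used here, genes ranked high in both sources outnumbered those high in 1 source and low in the other. A rank of at least 75 in all 6 libraries was reached by 1368 genes, 11.6% of those joined. Another 467 genes (3.97%) ranked at least 75 in all 4 head libraries and below 50 in both S2 libraries, and are called high in heads only. The converse held for 208 genes (1.77%), called high in S2 only. Genes high in 1 source and intermediate in the other fall in none of these classes, so the order of class sizes depends on the cut-offs. These classes are descriptions by rank and carry no test. A separate limma test on the ranks covered 7342 genes whose 2 group means averaged at least 1. At a Benjamini-Hochberg adjusted p under 0.05 it called 2429 genes (33.1%) higher in heads and 2919 (39.8%) higher in S2. With so large a share called, a call alone says little about a gene, and the list counts below are read against it. A gene near 0 in 1 group passes the filter only through the other group, so calls among the tested members of a list are descriptions and carry no weight for the whole list, above all where many members were listed at 0. A difference of at least 25 points with the same adjusted p was met by 1398 genes (19%) towards heads and 1158 (15.8%) towards S2. All 4 head ranks lay above both S2 ranks for 32.8% of joined genes and below both for 41.4%. The latter share includes the 501 genes listed at 0 in all 6 libraries, because tied zeros ranked 6.92 to 8.3 in heads and 13.7 and 15.5 in S2. The median difference over the tested genes was -2.37 points.

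**Figure D1:**
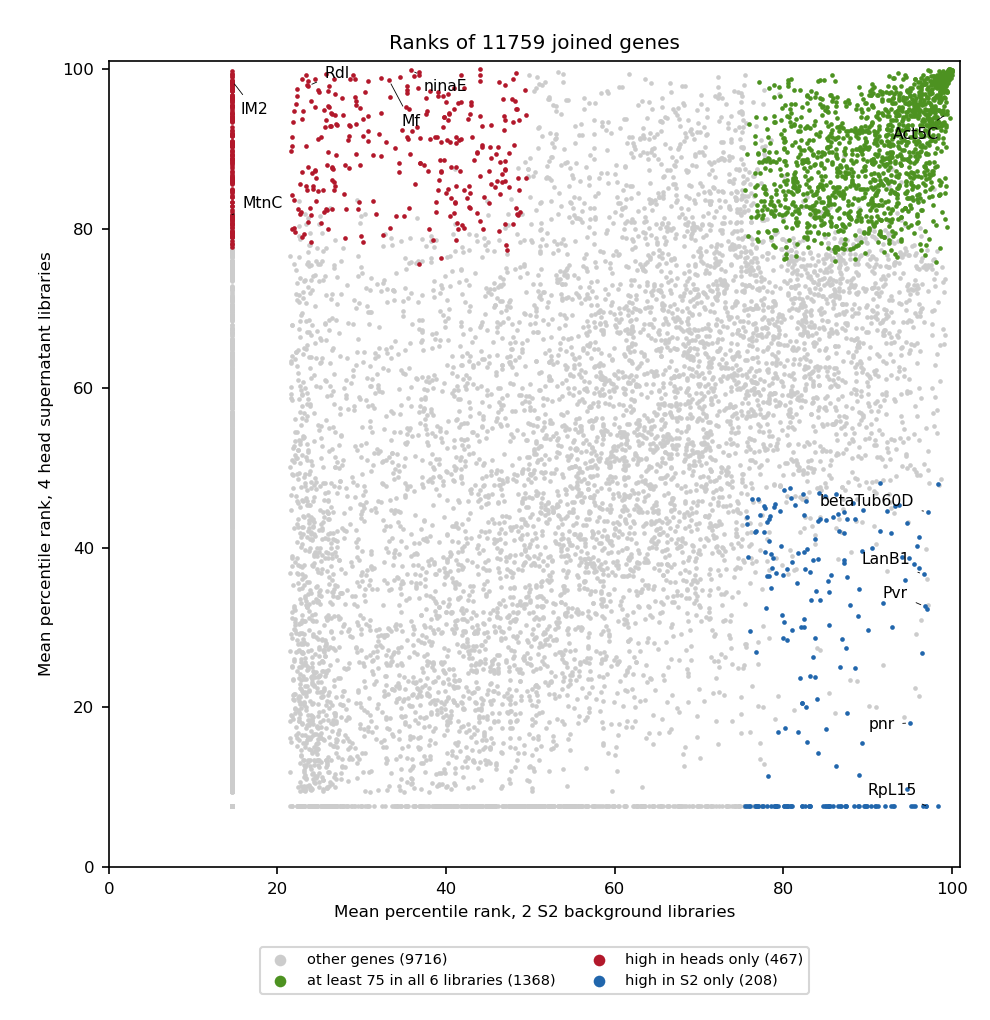
Each point is 1 of the 11759 joined genes, at its mean percentile rank in the 2 S2 background libraries (x) and in the 4 head supernatant libraries (y), coloured by class with class sizes in the legend. The column of points at an S2 rank of 14.6 and the row at a head rank of 7.68 are genes listed at 0 in every library of that group.

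Genes of neurons were among the clearest head genes. Of 14 joined genes of neuronal identity and neuronal RNA binding, all 12 tested ranked higher in heads, and their median rank over all 14 was 92.1 in heads against 36.8 in S2. The RNA-binding protein gene fne (chrX:12811510-12844504, dm3) stood at 67.8, 71.4, 96.7 and 82.4 FPKM in heads and at 0.0208 and 0 RPKM in S2. Its rank was 73.4 points higher in heads (SE 3.74, limma adjusted p = 1.65e-05), with no overlap between the groups. Appl, the fly relative of the amyloid precursor protein, had 211, 172, 388 and 624 FPKM against 0.507 and 0.495 RPKM. nrv3, a subunit of the sodium pump, had 834, 854, 1342 and 1294 FPKM against 0.0697 and 0.115 RPKM, the higher pair coming from replicates 3 and 4. The best known pan-neuronal marker was a weaker discriminator. elav, which encodes a neuronal splicing regulator, was listed at 14.5, 14.1, 14.8 and 21.3 FPKM in heads but also at 5.97 and 6.7 RPKM in S2. Its rank difference was 21.9 points (SE 1.67, limma adjusted p = 8.96e-05), and it was not in the head-only class.

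The machinery of electrical signalling and transmitter release followed the same direction. Among 18 joined voltage-gated channel genes, 14 of 16 tested ranked higher in heads and none higher in S2. para, the voltage-gated sodium channel, had 42.5, 39.3, 69 and 68.4 FPKM against 0.0166 and 0.0221 RPKM, a difference of 63.5 points (SE 1.99, limma adjusted p = 2.04e-06). Of 22 synaptic vesicle genes, 16 of 21 tested ranked higher in heads and 3 higher in S2. n-syb, the vesicle fusion protein of synapses, had 79.4, 97.9, 129 and 137 FPKM against 0.114 and 0.145 RPKM. cpx, a regulator of vesicle fusion, had 68.8, 54.6, 109 and 76.3 FPKM against 0.117 and 0.0292 RPKM. All 4 head values of both genes lay far above both S2 values. The classical markers Syt1, the calcium sensor of release, and brp, an active-zone scaffold, sat lower in heads, at mean ranks of 70.8 and 73.1. brp varied from 3.84 to 20.8 FPKM among the head libraries, and its call was lost without either S2 replicate (limma adjusted p = 0.0674 and 0.118).

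Transmitter genes were less uniform. Of 19 joined genes for transmitter synthesis and transport, 10 of 14 tested ranked higher in heads and 3 higher in S2. ple, the tyrosine hydroxylase of dopamine synthesis, had 33.9, 38.6, 82.8 and 66.9 FPKM against 0.0157 and 0 RPKM. Of 27 transmitter receptor genes, 10 of 15 tested ranked higher in heads and 1 higher in S2. Rdl (chr3L:9138697-9175249, dm3), a GABA-gated chloride channel, had 140, 140, 293 and 280 FPKM against 0.0435 and 0 RPKM and differed by 74.3 points (SE 4.39, limma adjusted p = 3.14e-05). Many receptor genes were low everywhere, and the list's median head rank was 49.4. Among 18 neuropeptide genes, 9 of 11 tested ranked higher in heads and 2 higher in S2.

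Glial and clock genes did not separate the sources as lists. Of 12 joined glial genes, 5 of 11 tested ranked higher in heads and 4 higher in S2. Gs2, a glutamine synthetase of glia, had 51.1, 76.5, 86.5 and 70.7 FPKM against 0.91 and 0.664 RPKM. e, which conjugates beta-alanine to biogenic amines, had 14.4, 17.4, 26.5 and 36.8 FPKM against 0 and 0.0242 RPKM. repo, the defining transcription factor of glia, was low, at 1.48 to 2.51 FPKM in heads and 0.06 and 0.0765 RPKM in S2. moody, a receptor of the glial blood-brain barrier, ranked higher in S2 by 26 points (limma adjusted p = 0.0296), with 14.7 and 13.6 RPKM against 0.53 to 4.1 FPKM. That call was lost without any 1 of head replicates 1, 2 and 4 or either S2 replicate (limma adjusted p = 0.0552 to 0.137). Of 12 clock genes, 2 of 8 tested ranked higher on each side. Pdp1, a transcriptional activator of the clock that is also active in other tissues, had 142, 176, 213 and 210 FPKM against 6.25 and 4.36 RPKM. vri, a repressor of the same loop, had 0.225 to 0.959 FPKM against 7.85 and 11.5 RPKM.

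**Figure D2:**
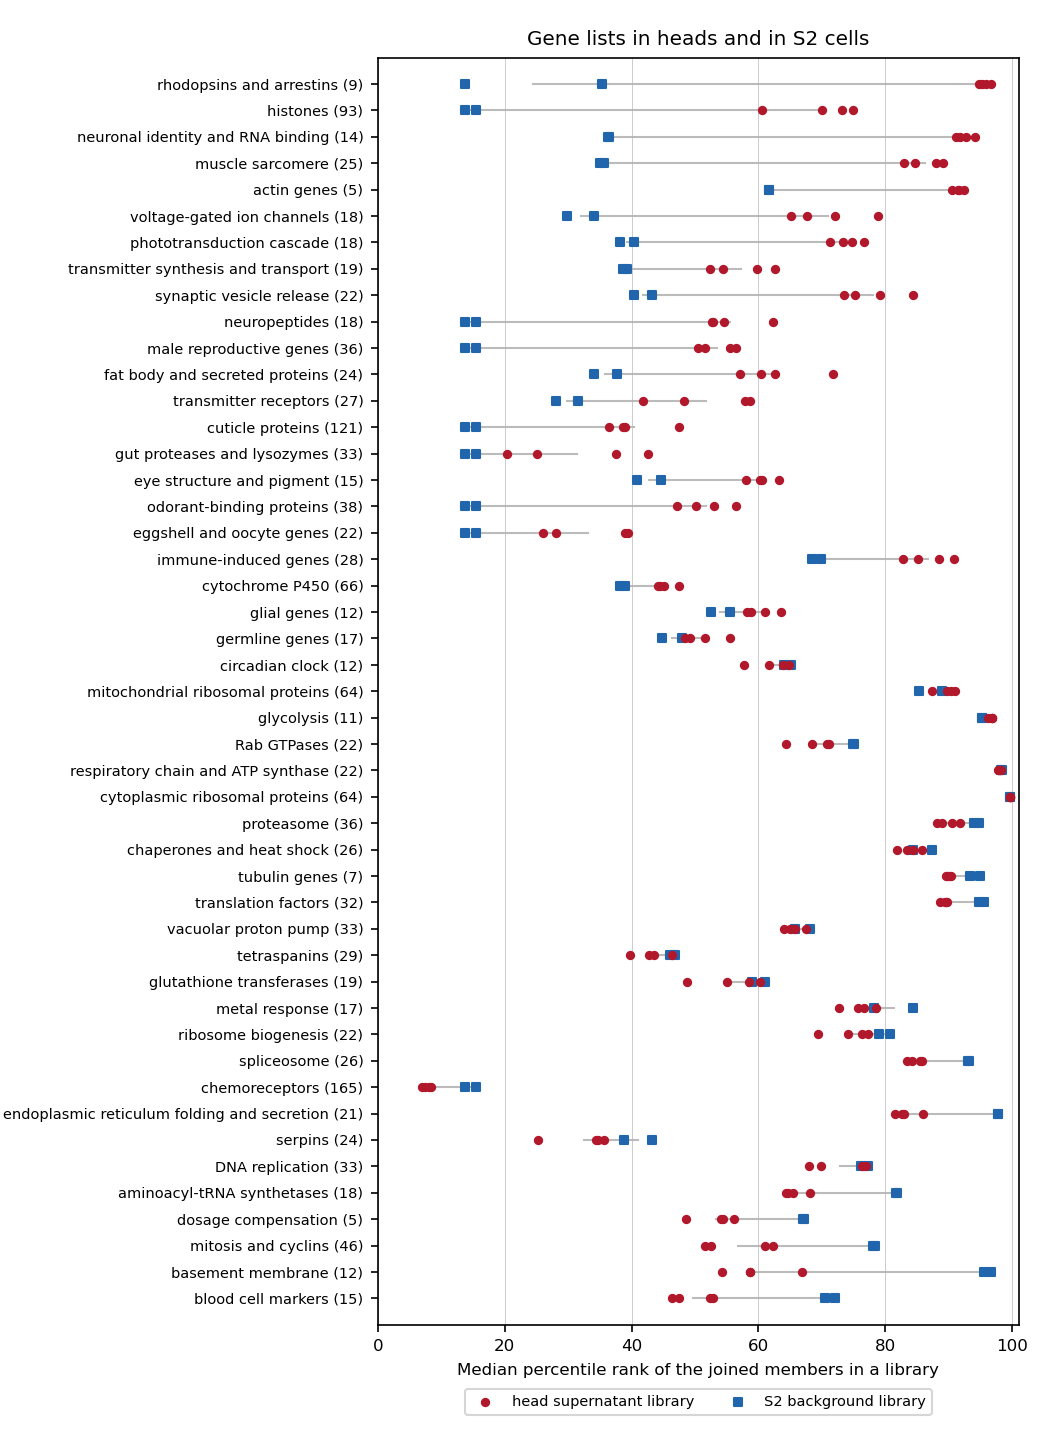
Each row is a gene list with the number of joined members in brackets. Circles give the median percentile rank of its members in each of the 4 head libraries, squares that in each of the 2 S2 libraries, and the grey line joins the means of those library medians. Lists are ordered by the median of the members' rank differences, from rhodopsins and arrestins (64) at the top to blood cell markers (-22.6) at the bottom.

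Light-detection genes gave the largest median difference of any list, 64 points over 9 rhodopsin and arrestin genes. All 9 were tested and ranked higher in heads, and 8 were high in heads only. ninaE (chr3R:15711968-15713928, dm3), the opsin of the outer photoreceptors, had 5733, 4927, 5968 and 7386 FPKM against 0.0375 and 0.144 RPKM and differed by 64 points (SE 2.59, limma adjusted p = 6.19e-06). Rh6, an opsin of inner photoreceptors, had 284, 269, 349 and 344 FPKM and was listed at 0 in both S2 libraries. The other inner-photoreceptor opsins Rh3, Rh4 and Rh5 had 60.8 to 90.9, 61.4 to 118 and 14 to 29.6 FPKM. Rh2, the opsin of the simple eyes on top of the head, had 46.9 to 92.6 FPKM and was listed at 0 in both S2 libraries. In head FPKM, a level per length, the order of means was therefore ninaE, Rh6, then Rh4, Rh3 and Rh2, whose ranges overlap, and then Rh5. Rh7 was the exception to the head-only class, at 1.81 to 3.89 FPKM and a mean head rank of 58.6. The arrestins, which shut off activated rhodopsin, were high too, with 113 to 200 FPKM for Arr1 and 233 to 354 FPKM for Arr2.

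Downstream of the opsins, 13 of 16 tested phototransduction genes ranked higher in heads and 2 higher in S2, of 18 joined. inaD, the scaffold of the signalling complex, had 77.2, 60.2, 112 and 101 FPKM against 0.32 and 0.119 RPKM. The myosin-kinase ninaC had 133, 104, 203 and 216 FPKM against 0.0664 and 0 RPKM. trpl, a light-activated cation channel, had 145 to 220 FPKM against 0.0615 and 0.0785 RPKM, but its head rows carried a failed-estimate status. Genes of eye structure and pigment differed less: 6 of 10 tested ranked higher in heads and 1 higher in S2, with a median difference of 11.7 points over 15 joined.

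Muscle genes formed another head group. Of 25 sarcomere genes, 21 of 23 tested ranked higher in heads and 1 higher in S2, with median ranks of 84.4 and 35.4. Mf (chr3R:10996347-11006143, dm3), a protein of the myofibril, had 324, 300, 284 and 478 FPKM against 0.0409 and 0.0515 RPKM, a difference of 65.4 points (SE 1.49, limma adjusted p = 6.91e-07). Mlp60A, a muscle LIM protein, had 445 to 637 FPKM against 0.084 and 0.0357 RPKM. The thin-filament genes up and wupA, which encode troponins, had 117 to 239 and 60 to 87.8 FPKM. Tm2, a tropomyosin, had 74 to 150 FPKM and was listed at 0 in both S2 libraries. Mhc, the muscle myosin heavy chain, stood at 63.9, 71.2, 87.2 and 2613 FPKM, so that 1 library held over 10 times the value of the others. Its rank difference of 63.1 points rests on all 4 libraries, each of which exceeded both S2 libraries.

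Fat body, cuticle and odorant-binding protein genes also had members high in heads only, with 4, 14 and 11 of the 467. Of the 467 genes, 120 were in any list described here. Only a CG or CR symbol was carried by 240 of them (51.4%), against 56.3% of all joined genes. Of 24 fat body and secreted protein genes, 12 of 18 tested ranked higher in heads and 3 higher in S2. The yolk protein genes Yp1 and Yp2 had 824 to 1037 and 373 to 423 FPKM against at most 0.0381 and 0.231 RPKM. Rfabg, the lipid-carrier apolipoprotein, had 24.1 to 30 FPKM and was listed at 0 in S2. Lsd-2, a lipid droplet protein, had 148 to 218 FPKM and was likewise listed at 0 in S2. Of 121 cuticle protein genes, 67 were listed at 0 in both S2 libraries, and the median head rank over all 121 was 39.5. The 42 that passed the filter, largely through their head values, included 38 called higher in heads. Cpr72Ec had 160 to 220 FPKM, and Acp65Aa, an adult cuticle protein, 36.9 to 76.1 FPKM. Of 38 odorant-binding protein genes, 21 were listed at 0 in both S2 libraries, and the median head rank over all 38 was 53.9. The 19 that passed the filter were called higher in heads, an outcome largely set by that filter. Obp19b of that list stood at 48.6 to 83.1 FPKM. Pbprp2, which is not in the list, stood at 16550, 1675, 1698 and 1570 FPKM, again with 1 library about 10 times the others. Chemoreceptor genes, usually expressed in few cells each, were mostly too low to test: 7 of 165 joined passed the filter, 118 were listed at 0 in both S2 libraries and 77 in all 4 heads. Of those 7, 6 were called higher in S2 and 1 higher in heads, and none was high in heads only.

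Defence genes were called towards heads more often than towards S2, and some ranked high in both. Of 28 immune-induced genes, all tested, 15 ranked higher in heads and 5 higher in S2, while 8 were high in all 6 libraries. The difference was at least 25 points for 11 of those 15 and 3 of those 5. IM2, an infection-induced peptide, had 291, 252, 342 and 382 FPKM and was listed at 0 in both S2 libraries. The next 3 genes are not in that list, and IM14 and dro4 are named for their large head-only differences. IM14 had 997, 1003, 1663 and 1595 FPKM and dro4, a relative of drosomycin, 428, 354, 210 and 277 FPKM. Both were listed at 0 in S2. The serpin gene nec, which restrains the Toll pathway, had 31.9 to 40.1 FPKM against 0.222 and 0.0471 RPKM. Serpin genes as a separate list leaned the other way. Of 24 joined, 3 of 11 tested ranked higher in heads and 6 higher in S2, with a median difference of -10.2 points.

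The 10 largest differences of the head-only class were all set by a listed 0 in S2 and a very high head value. They were CG6503, IM14, CG34227, CG12158, Nplp3, CG5791, CG4716, IM2, Rh6 and dro4. CG6503 (chr3R:22250420-22250827, dm3) had 3532, 2754, 3183 and 3836 FPKM, a difference of 85.1 points (SE 1.6, limma adjusted p = 6.41e-07). Nplp3, a precursor of neuropeptide-like peptides, had 426, 434, 728 and 978 FPKM. Among genes above 0 in both S2 libraries the largest differences were smaller, led by genes such as aret, a translational repressor, with 97.9 to 190 FPKM against 0.0239 and 0.0152 RPKM. mmd, a metalloprotease, had 278, 451, 763 and 578 FPKM against 0.0326 and 0.0415 RPKM.

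**Figure D3:**
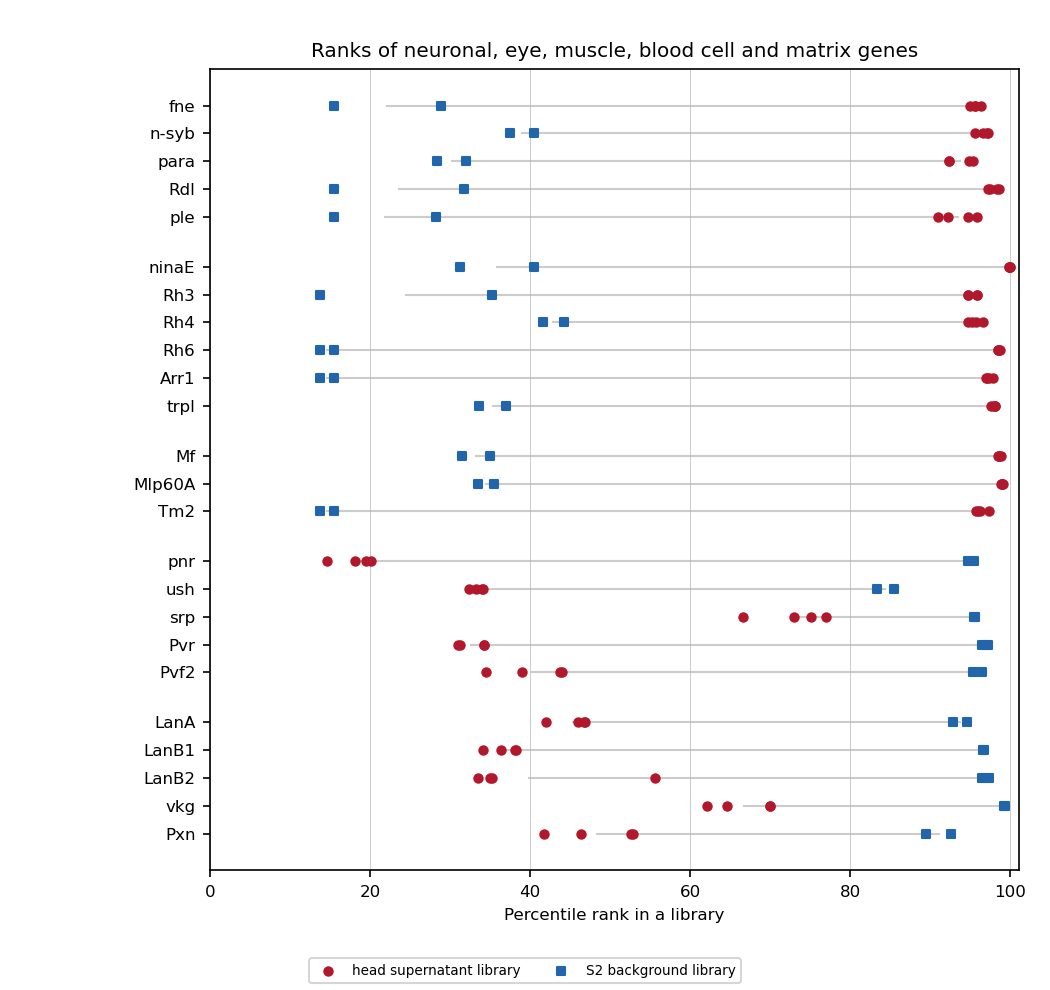
Percentile ranks of 24 genes in each of the 4 head libraries (circles) and 2 S2 libraries (squares), with a grey line between the group means. The neuronal, eye and muscle genes (fne to Tm2) lie above 90 in every head library, and the blood cell and matrix genes (pnr to Pxn) lie above 80 in both S2 libraries.

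On the S2 side, several genes known from blood cell biology had large differences. Pvr, Pvf2 and pnr, which are in none of the lists, were chosen after their values were seen. Pvr (chr2L:8220980-8239878, dm3), the receptor of the PDGF and VEGF family that blood cells need to survive, had 143 and 183 RPKM against 0.317, 0.277, 0.557 and 0.47 FPKM. It ranked 64.1 points lower in heads (difference -64.1, SE 2.25, limma adjusted p = 3.26e-06). Its ligand gene Pvf2 had 111 and 152 RPKM against 0.442 to 1.11 FPKM, so receptor and ligand were both high in S2 and low in heads. pnr (chr3R:11851819-11866639, dm3), a GATA transcription factor, had 96.6 and 118 RPKM against 0.0177 to 0.0506 FPKM. Its difference of -76.9 points (SE 2.32, limma adjusted p = 1.74e-06) was the largest among S2-only genes above 0 in all heads. Its partner ush, a zinc-finger cofactor of GATA factors, had 33.2 and 31.8 RPKM against 0.346 to 0.552 FPKM. srp, the GATA factor that specifies blood and fat body, had 113 and 122 RPKM and also 4.68 to 9.59 FPKM in heads.

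As a list, 8 of 10 tested blood cell markers ranked higher in S2 and none higher in heads, of 15 joined, with a median difference of -22.6 points. The phagocytosis receptors eater and crq had 3.96 and 4.31 RPKM, and 31.5 and 34.7 RPKM. In heads eater was low, at 0.0166 to 0.142 FPKM, while crq stood at 6.42 to 8.5 FPKM. Hml, a clotting protein used as a plasmatocyte marker, was near the threshold, with 10.1 and 5.5 RPKM against 2.08 to 2.55 FPKM (difference -8.49, SE 3.07, limma adjusted p = 0.0467). It lost that call when any 1 head library or S2 replicate 1 was left out, with a limma adjusted p of 0.323 in the latter case. Against the 2 Orb2B S2 libraries of the series in place of background, Hml ranked 19.6 points higher in heads (limma adjusted p = 0.00302).

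Basement membrane genes, whose products blood cells and fat body secrete, were high in S2. Of 12 genes, all tested, 9 ranked higher in S2 and 1 higher in heads, and the median ranks were 95.5 in S2 and 57.5 in heads. Cg25C, Pxn and vkg are also among the blood cell markers. The laminin chain genes LanB1, LanA and LanB2 ranked higher in S2. LanB1 (chr2L:7811440-7820771, dm3) had 147 and 162 RPKM against 0.463 to 0.76 FPKM, and LanA 96.4 and 77.5 RPKM against 0.981 to 1.32 FPKM. LanB1 differed by -60 points (SE 2.3, limma adjusted p = 4.88e-06). LanB2 had at least 146 RPKM against 0.403, 0.411, 0.617 and 2.37 FPKM, the last of which kept it out of the S2-only class. vkg, a collagen IV chain, had 799 and 1001 RPKM against 3.49 to 6.09 FPKM. Pxn, a matrix peroxidase, had 48.4 and 75.6 RPKM against 0.966 to 1.96 FPKM.

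Secretory pathway genes pointed the same way at high rank in both. All 21 joined genes listed for endoplasmic reticulum folding and secretion were tested, and 17 ranked higher in S2 and none higher in heads. The list holds bip1, whose place in this pathway was not established here, so the counts describe the list as drawn up. Crc, the chaperone calreticulin, had 1785 and 1399 RPKM against 182 to 248 FPKM, yet differed by only -1.27 points because both ranks were near the top. The COPI coat genes gammaCop and beta'Cop differed more, with 60 and 106 RPKM against 1.36 to 2.54 FPKM, and 83.6 and 119 RPKM against 1.19 to 3.92 FPKM. The vacuolar proton pump, a separate list, was mixed. Of 33 joined genes, 13 of 21 tested ranked higher in S2 and 4 higher in heads. The median difference was -3.23 points, with members from -40.9 to 52 points. VhaPPA1-1, a subunit of that pump with a large difference, had 184 and 283 RPKM against 2.1 to 2.88 FPKM.

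Among cell division genes, those of mitosis mostly ranked higher in S2. Of 46 mitosis and cyclin genes, 31 of 45 tested ranked higher in S2 and 2 higher in heads, with median ranks of 79.1 and 56.5. fzy, an activator of the anaphase-promoting complex, and borr, of the chromosomal passenger complex, had 40.9 and 54.4 RPKM, and 52.5 and 60 RPKM, but both were listed at 0 in all heads and overlap another head row. DNA replication genes were less one-sided, with 13 of 33 tested higher in S2 and 5 higher in heads. That S2 share was near the 39.8% of all tested genes called towards S2. The median ranks of the list were 72.6 in heads and 76.1 in S2. Orc1, of the origin recognition complex, had 10.1 and 16.6 RPKM against 0.356 to 0.752 FPKM. Mcm7, of the replicative helicase, had 28.3 and 45.4 RPKM against 1.1 to 2.37 FPKM. The head values of Mcm7 were higher in replicates 1 and 2 (2.36 and 2.19) than in replicates 3 and 4 (1.1 and 1.19).

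More genes of protein and RNA synthesis were called towards S2 than towards heads. Of 29 tested translation factor genes, 18 ranked higher in S2 and 5 higher in heads. Of 18 aminoacyl-tRNA synthetase genes, 10 ranked higher in S2 and 1 higher in heads. Aats-arg, the arginyl-tRNA synthetase, had 14.2 and 17.7 RPKM against 0.449 to 0.79 FPKM. Of 26 spliceosome genes, 15 ranked higher in S2 and 2 higher in heads, and of 22 ribosome biogenesis genes 11 and 4. Of the 5 joined genes of dosage compensation, which raises transcription of the male X chromosome, 3 ranked higher in S2 and 1 higher in heads. mof, the acetyltransferase of that complex, had 11.5 and 18 RPKM against 0.555 to 0.717 FPKM, and mle, its helicase, 8.95 and 10.4 RPKM against 10.8 to 46.6 FPKM. The call of mle was lost without either S2 replicate (limma adjusted p = 0.0675 and 0.0714).

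Metal-response genes mostly ranked higher in S2 cells, which had received copper while no copper is labelled for the flies. Of 17 genes, all tested, 11 ranked higher in S2 and 2 higher in heads. Most of these differences were small, with a median of -4.97 points over the list. At 25 points or more, 3 genes were called towards S2 and 2 towards heads. MtnA (chr3R:5609487-5610093, dm3), a metallothionein that binds copper, had 54919 and 40996 RPKM in S2 and 1041, 952, 802 and 1238 FPKM in heads. MtnB had 324 and 243 RPKM against 35.4 to 64.1 FPKM, and MtnD 1517 and 1076 RPKM against 37 to 55.4 FPKM. MtnC, the fourth member, had 9.08 to 16.7 FPKM in heads and was listed at 0 in both S2 libraries. The zinc transporter gene foi was the 1 member of the list high in S2 only, with 32.2 and 67.4 RPKM against at most 1.18 FPKM. Catsup, a zinc transporter gene outside the list, was also high in S2 only, with 90.7 and 163 RPKM against at most 0.718 FPKM. Glutathione transferases, a separate list, went both ways, with 5 of 15 tested higher in heads and 9 higher in S2. Of these, GstD5 had 114 and 164 RPKM against 0.407 to 0.987 FPKM. No S2 library without copper was analysed here, so the copper cannot be told apart from the cell type.

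Ribosomal protein genes stood at the top of both sources. Of 64 joined cytoplasmic ribosomal protein genes, 59 were high in all 6 libraries, and the median rank was 99.7 in heads and 99.7 in S2. Of 63 tested, 3 ranked higher in heads, 6 higher in S2, and 54 did not pass the test. Among the 10 genes with the highest lowest rank over the 6 libraries were RpS26, RpS23, RpL40, RpL31, RpL26, RpL36, RpL27A and sta. RpS23 had 9456, 8439, 8939 and 10080 FPKM against 9612 and 7209 RPKM. RpS26 had 6469 to 8028 FPKM against 17080 and 11730 RPKM. Ranks this close to 100 leave little room to differ, so a missed test here does not show equal levels. RpS5b, a ribosomal protein paralogue known from the germline, was an exception, with 188, 172, 44.3 and 87.8 FPKM against 2.6 and 2.12 RPKM and a difference of 41.9 points (SE 1.69, limma adjusted p = 6.15e-06).

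Energy metabolism and protein turnover were shared as well. Of 22 respiratory chain and ATP synthase genes 20 were high in all 6 libraries, as were 50 of 64 mitochondrial ribosomal protein genes, 24 of 36 proteasome genes and 9 of 11 glycolysis genes. The cytochrome oxidase subunit genes levy and cype had 1489 to 1866 and 967 to 1211 FPKM, against 889 and 716, and 854 and 650 RPKM. SdhA, of succinate dehydrogenase, leaned to S2, with 37.1 and 66.4 RPKM against 6.75 to 12.4 FPKM, a call that was lost without S2 replicate 2 (limma adjusted p = 0.062). Mitochondrial ribosomal protein genes split both ways, with 26 of 64 tested higher in heads and 14 higher in S2. Of 26 tested proteasome genes, 1 ranked higher in heads and 17 higher in S2. In sugar metabolism Hex-C, a hexokinase, had 49 to 67.7 FPKM against 0.608 and 0.533 RPKM. ImpL3, the lactate dehydrogenase, showed the opposite, with 18.8 and 15.1 RPKM against 0.842 to 2.42 FPKM.

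Actin and tubulin paralogues divided between the sources. The cytoplasmic actin gene Act5C had 1940 and 2499 RPKM in S2 and 53.2 to 67 FPKM in heads, and Act42A 719 and 840 RPKM against 3.63 to 4.76 FPKM. The muscle actin genes went the other way: Act79B had 530, 1914, 4835 and 740 FPKM against 5.74 and 6.63 RPKM, and Act87E 30.5 to 44.1 FPKM against 0.176 and 0.0898 RPKM. Act88F, the actin of flight muscle, had 4.62 to 8.19 FPKM against 0.0762 and 0.0486 RPKM. All 5 passed the test, with differences of -5.02 (SE 0.428, limma adjusted p = 0.00014) for Act5C, -33.6 for Act42A, 37.7 for Act79B, 52.6 for Act87E and 36 for Act88F. Actin coding sequences are very alike, so reads may have been divided between copies differently by each pipeline.

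Among 7 joined tubulin genes, 3 ranked higher in heads and 4 higher in S2. betaTub60D had 144 and 240 RPKM against 0.64 to 1.29 FPKM, a difference of -52.6 points (SE 3.28, limma adjusted p = 3.91e-05), and was high in S2 only. alphaTub67C, the maternal alpha-tubulin, had 122, 146, 64.2 and 87.1 FPKM against 0.721 and 0.714 RPKM and was high in heads only. alphaTub84B, the most widely used alpha-tubulin, had 108 to 152 FPKM against 1764 and 1808 RPKM, and betaTub56D 106 to 156 FPKM against 2191 and 2594 RPKM. alphaTub84D also leaned to S2, by -4.2 points. alphaTub85E and betaTub97EF leaned to heads, by 19.7 and 26.5 points.

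**Figure D4:**
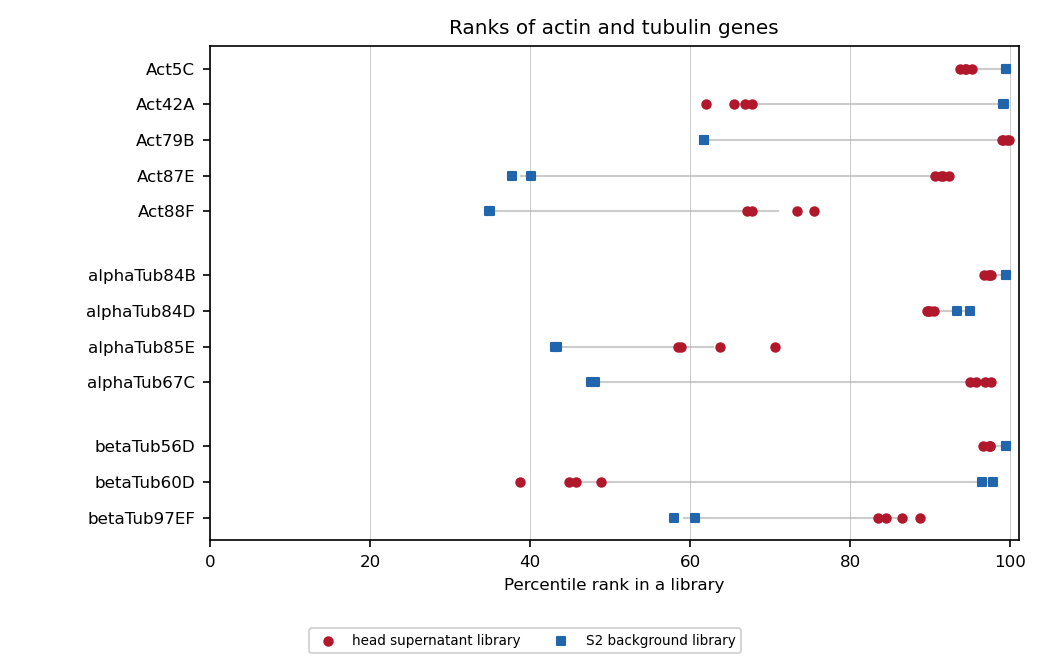
Percentile ranks of the 5 actin and 7 tubulin genes in each of the 4 head libraries (circles) and 2 S2 libraries (squares), with a grey line between the group means. Act5C, Act42A and betaTub60D lie higher in S2, and Act79B, Act87E, Act88F and alphaTub67C lie higher in heads.

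Genes of tissues outside the head were detected in the head libraries. These lists were added after values had been seen. Of 36 male reproductive genes, 13 were high in heads only and 26 were listed at 0 in both S2 libraries, with a median head rank of 52.8. Of the 19 that passed the filter, mainly through head values, 18 were called higher in heads. Mst87F, a sperm protein gene, had 147, 113, 170 and 164 FPKM. The seminal fluid genes Acp98AB and Acp70A had 238, 376, 324 and 104 FPKM, and 26.7, 28.2, 31.3 and 9.78 FPKM. dj, of the sperm tail, had 36.4 to 57.9 FPKM, and these 4 genes were listed at 0 in both S2 libraries.

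Female germline and gut genes were detected too. Of 22 eggshell and oocyte genes, 5 passed the filter and 3 of these ranked higher in heads. Of 17 germline genes, 4 of 9 tested ranked higher in heads and 1 higher in S2. This list shares nos and osk with the eggshell and oocyte list and Rbp9 with the neuronal identity list. Its median difference was 2.73 points, with members from -36.6 to 51 points, and turned to -5.59 with head pellets in place of supernatants. vas, a germline RNA helicase and the member at 51 points, had 15.8, 17.1, 7.36 and 11.8 FPKM against 0.015 and 0.0151 RPKM. osk, which organises germ plasm, had 6.9, 5.73, 4.51 and 3.46 FPKM against 0.417 and 0.586 RPKM, and otu, needed in oogenesis, 8.81 to 13.2 FPKM against a listed 0. Of 33 gut protease and lysozyme genes 25 were listed at 0 in both S2 libraries, and 6 of the 8 that passed the filter ranked higher in heads. The trypsin genes betaTry and alphaTry had 13.7, 24.8, 2.48 and 0.477 FPKM, and 13.1, 16.3, 5.06 and 1.19 FPKM. The call of betaTry was lost without head replicate 1 or either S2 replicate (limma adjusted p = 0.0534 to 0.116). Median ranks of the gut list were 37.6, 42.5, 25.1 and 20.3 in head replicates 1 to 4, and those of the eggshell and oocyte list were 38.9, 39.5, 26 and 28.1. Replicates 1 and 2 thus lay above replicates 3 and 4 for both lists, as they did for mitosis and cyclin genes, at 61, 62.3, 51.5 and 52.5. The part of these other tissues in the head-only class was not tested. orb itself, the germline relative of orb2, was low in both sources, with 1.22, 1.38, 2.5 and 1.15 FPKM against 0.141 and 0.166 RPKM, and fell below the filter for testing.

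Many entries of both one-sided classes rest on listed zeros. Of the 467 genes high in heads only, 176 were listed at 0 in both S2 libraries, 108 in 1 of them and 183 in neither. Of the 208 genes high in S2 only, 72 were listed at 0 in all 4 head libraries and 20 in some. The 10 largest S2-only differences all belonged to such genes: CG14715, IP3K1, RpL15, CG7593, CG8223, l(1)G0193, Taf10, Ts, CG31650 and CG5854. RpL15, a ribosomal protein gene, had 151 and 184 RPKM and a listed 0 in every head library, although the other ribosomal protein genes named here exceeded 40 FPKM there. CG14715 (chr3R:7499941-7500645, dm3) had 340 and 270 RPKM, and Ts, the thymidylate synthase gene, 66.2 and 93.4 RPKM. The locus of a gene overlapped that of another named head row for 91.7% of these 72 genes, against 37.1% of the 116 S2-only genes above 0 in all heads and 39.6% of all joined genes. dup, a replication licensing factor listed at 0 in heads, was 1 such gene. Differences of these genes are therefore given as listed zeros and not as absence from heads.

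**Figure D5:**
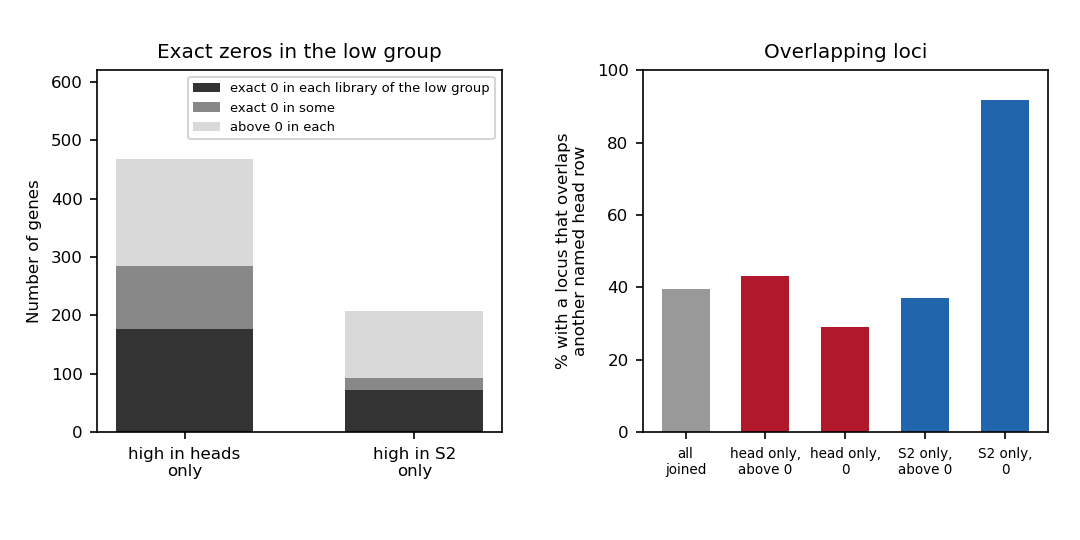
Left, the genes high in heads only (467) and in S2 only (208), divided by whether the low group lists them at exactly 0 in each library, in some or in none. Right, the percentage of genes whose locus overlaps another named head row, which is 91.7% for S2-only genes at 0 in all 4 heads and 39.6% for all joined genes.

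Gene length differed between the classes. In the 2352 genes with the shortest loci (117 to 990 bases) the median difference was 3.22 points with 154 head-only and 16 S2-only genes. In the 2352 genes with loci of 2731 to 6230 bases it was -7.13 points, with 49 head-only and 73 S2-only genes. In the 2352 longest, from 6232 bases up, it was 1.36 points with 137 head-only and 42 S2-only genes, so the difference did not follow length in 1 direction. Head-only genes listed at 0 in both S2 libraries had a median locus span of 879 bases, against 4686 bases for those above 0 in both and 2089 bases for all joined genes. Histone genes were a special case: of 93 joined, 87 were listed at 0 in both S2 libraries and 49 of 56 tested ranked higher in heads. Their copies are nearly identical and their transcripts mostly lack a poly(A) tail, so these values are uncertain.

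The classes were also drawn with other libraries of the series. With the 4 b-isox pellets of the same head extracts in place of the supernatants, 498 genes were high in heads only, of which 387 were shared with the 467 above (82.9%). For S2 only, 156 of the 208 genes (75%) were shared, and for both sources 1170 of 1368 (85.5%). With the 2 Orb2B S2 libraries in place of background, 425 head-only genes (91%), 154 S2-only genes (74%) and 1283 shared genes (93.8%) were the same. Leaving out genes listed at 0 deletes class members outright, so the shares kept are not like those above. Only 183 of the 467 head-only genes and 116 of the 208 S2-only genes had no listed 0. With every gene that had an exact 0 in any library left out and ranks retaken, 262 genes were head-only and 178 S2-only, and these kept 117 of the 467 (25.1%) and 40 of the 208 (19.2%). With genes at 0 in all heads left out, which deletes 72 S2-only genes, 412 head-only (88.2%) and 119 S2-only genes (57.2%) were kept.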

How the data were processed

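Per the submitters' processing notes, head reads were processed with CASAVA 1.9.1, TopHat and Cufflinks, and S2 reads with CASAVA 1.9.1, cutadapt, Bowtie and Novoalign, both on dm3. The authors deposited FPKM per row for heads and RPKM per gene for S2 cells, so read depth is unknown. Head rows with several gene names were left out, and the rest were joined to S2 rows by symbol. Rows without a gene name held 35.2 to 97.2% of the summed FPKM, which ranks do not use. Ranks were taken within each library over 11759 genes, with ties averaged, and tested with limma 3.58.1 in R 4.3.3 (mean-variance trend, two-sided) on genes whose group means averaged at least 1. The script was tested on simulated data.

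Members and lists were chosen with earlier results of these data known, and 3 lists of other tissues were added after values were seen. Named genes were the 10 with the largest rank difference in each one-sided class, the 10 with the highest lowest rank in the class high in both, and up to 4 per list. Some genes that this rule selects are not reported here. Other genes named were chosen after their values were seen. Head replicates 5 and 6, promoter motifs and sequences were not analysed here. Replicate numbers did not pair samples (correlation of deviations -0.0247 to 0.0247).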

Additional observations from a re-analysis of the deposited data

Results flagged for a closer look

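Among 137 genes named, 8 had 1 of the 4 head supernatant libraries far from the other 3 by Dixon's criterion. Chance meets it for about 1 gene in 20, so about this many are met by chance. LanB2 ranked 55.62 in replicate 4, against 33.5 to 35.2 in the others. Acp70A ranked 77.25 in replicate 4, against 89.2 to 90.9. betaTub56D ranked 96.62 in replicate 3, against 97.3 to 97.4. The rest moved by under 1 point near the top of the scale, with ranks of 99.247 for CG12158 in replicate 4, 99.962 for RpL31 in replicate 3, 99.366 for Yp1 in replicate 1, 99.103 for Yp3 in replicate 3 and 99.29 for cype in replicate 1.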

How the results depend on the processing

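Over 23 settings and 136 tested named genes, 2938 values kept their direction and side of the threshold, 60 lost the call, 19 gained it and 16 changed sign. On a log2 scale with a pseudocount of 0.5 the counts were 2776 higher in heads and 2688 higher in S2, the reverse of the order on ranks (2429 and 2919). A minimum of 5 left 1548 higher in heads, and requiring 25 points left 1398 and 1158. High from 90 and low under 50 gave 192 head-only, 37 S2-only and 435 shared genes, and high from 75 with low under 25 gave 176 and 80. With genes at an exact 0 left out, 262 were head-only, 178 S2-only and 745 shared, over fewer genes, of which 117, 40 and 745 were in the same class before. Leaving out each head library in turn gave 2341 to 2452 higher in heads and 2785 to 2992 higher in S2. Leaving out any 1 of the libraries gave 473 to 507 head-only, 219 to 275 S2-only and 1385 to 1463 shared genes. These class counts could only stay or grow, since ranks were unchanged and fewer libraries had to pass. They therefore do not test how stable the classes are.

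The sign changes were in ribosomal protein genes near the top of the scale and in Hml (19.57 with Orb2B S2 cells). At log2 pseudocounts of 0.5, 0.1 and 1 the differences were 0.336, 0.336 and 0.3359 for RpL26, 0.5562, 0.5562 and 0.5561 for RpL36, 0.1679 in each for RpS26, and 0.8399, 0.8399 and 0.8398 for sta. At each pseudocount RpL36 and sta passed the test towards heads (limma adjusted p = 0.01715 to 0.02503 and 0.03079 to 0.03693). RpL26 and RpS26 did not pass. RpL31 kept its sign there and also passed, at 1.24 (limma adjusted p = 0.04165 to 0.04726). In other settings RpL31 gave -0.06468 with pellets and -0.001417 to 0.03827 with a library left out. The cause was not tested. As a replicate block, the numbers, which do not pair the samples, gave 2407 and 2857 calls, and -0.004252 for RpL31. The restriction to rows of 1 gene in every library changed nothing, since the join already required it. Depth is unknown, so how far it limits low genes could not be measured.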
